A study of Mus musculus with 45 samples.

Results

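The step from 0.1 to 0.3 µg/kg TCDD in mouse liver was examined by testing the 5 mice labelled 0.3 µg/kg directly against the 5 mice labelled 0.1 µg/kg, 10 of the 45 mice sequenced, across 17464 genes. TCDD is the most studied of the dioxins, a persistent pollutant, and it was given over a wide dose range to set RNA-Seq beside arrays run on the same livers. All 45 animals were female C57BL/6 mice with no engineered allele, and the labels describe them as ovariectomized. By gavage at intervals of 4 days over 28 days they received either sesame oil, the vehicle, or TCDD at 1 of 8 doses, which from the highest down were 30, 10, 3, 1, 0.3, 0.1, 0.03 and 0.01 µg/kg. The labels also use the word daily beside the interval of 4 days, whereas the methods give the interval alone and do not mention ovariectomy. Each sample was the liver of 1 mouse, with 5 mice per group, and mice are numbered 1 to 5 within a group only to name them.

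TCDD acts through the aryl hydrocarbon receptor (AhR), a ligand-activated transcription factor. Without ligand, AhR is held in the cytosol with Hsp90 and *Ptges3*. Once bound by ligand it enters the nucleus, pairs with *Arnt* and binds dioxin response elements (DREs), whose core letters are GCGTG. *Cyp1a1*, *Cyp1a2* and *Cyp1b1*, which encode cytochrome P450 enzymes, are its best known targets, and the products of *Ahrr* and *Tiparp* restrain the receptor. In liver, sustained exposure is known for fat accumulation, altered lipid and bile acid handling and loss of sex-biased expression.

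At this step 8 genes rose and 0 fell at an adjusted p below 0.05 (edgeR quasi-likelihood test, all 45 mice in the fit, Benjamini-Hochberg over all genes), which is 0.0458% and 0% of the genes tested. The 8 were *Nptx1*, *Cyfip2*, *Tuba8*, *Insl6*, *Cyp1a2*, *Slc46a3*, *Htatip2* and *Tcf4*, and 4 of them rose by 2-fold or more. For each of the 8, every mouse at 0.3 lay above every mouse at 0.1, as was the case for 0.281% of all genes tested. Without adjustment 1007 genes had p below 0.05 in edgeR, of which 437 were higher and 570 lower at 0.3. DESeq2 called 19 genes higher, among them all 8, and 2 lower. The libraries were sequenced in pools that the labels do not give, so no within-pool value could be formed.

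**Figure D1:**
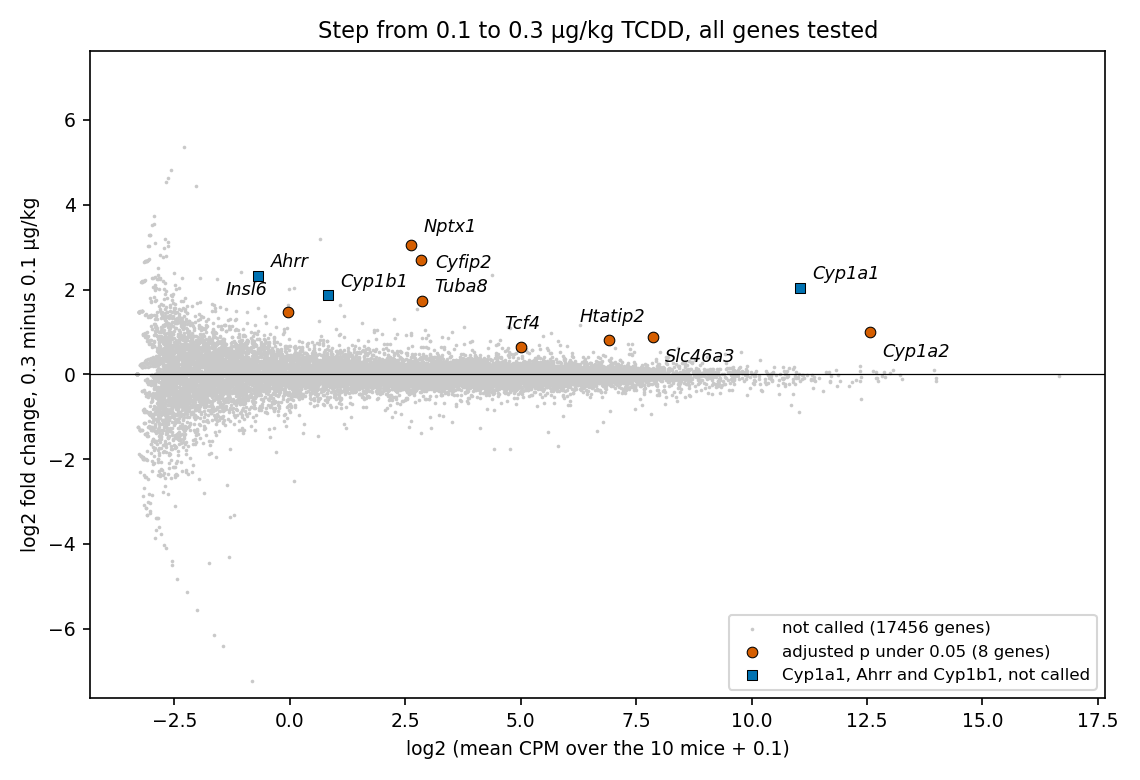
Log2 fold change from 0.1 to 0.3 µg/kg (y axis) against the mean level over the 10 mice (x axis, log2 of CPM + 0.1) for the 17464 genes tested. Orange circles mark the 8 genes called, all above 0, and blue squares mark *Cyp1a1*, *Ahrr* and *Cyp1b1*, which lay at 2.04, 2.33 and 1.87 without being called.

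Levels are given as CPM, the reads of a gene scaled to a common library total after TMM normalization of the totals assigned to genes. Assigned reads ranged from 12121564 to 56509899 at 0.1, with mouse 5 the deepest, and from 12997206 to 25816679 at 0.3. No libraries of a group agreed within sampling noise. Gene positions are those of GENCODE on GRCm38, the build to which the reads had been aligned.

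Genes that were still climbing, called higher at 0.1 than in vehicle and higher again at 0.3, numbered 3: *Cyp1a2*, *Htatip2* and *Slc46a3*. They came from the 4 genes called at 0.1 against vehicle, which are 0.0229% of the genes tested and were all higher. The remaining gene of the 4, *Cyp1a1*, was not called at the step. The livers at 0.1 enter both comparisons, so the count is a description and not a test.

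*Cyp1a2* (chr9:57676937-57683703, minus strand) encodes the hepatic P450 that oxidises caffeine and arylamines and that also binds TCDD. Its level in mice 1 to 5 was 3866, 4601, 4509, 3501 and 3800 CPM at 0.1, and 8882, 7287, 6839, 7344 and 10000 CPM at 0.3. The groups did not overlap, and mice 1 and 5 were the highest at 0.3. The mean rose from 4055 ± 478 to 8070 ± 1327 CPM (SD, n = 5). The step was 0.99 ± 0.13 (SE) on the log2 scale, with an adjusted p of 2.42e-05 in edgeR. At 0.1 *Cyp1a2* was already 1.88 above vehicle on the log2 scale (adjusted p 5.65e-13, edgeR). Of this rise, 0.77 lay between 0.03 and 0.1 (adjusted p 0.00574, edgeR).

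*Htatip2* (chr7:49759115-49773975, plus strand) encodes a dehydrogenase-like protein known as a suppressor of metastasis. Its level was 82.6, 120.4, 92.7, 64.2 and 77.1 CPM at 0.1, and 174, 151, 155.5, 143 and 138.6 CPM at 0.3. Mouse 2 was the highest at 0.1 and still lay below every mouse at 0.3. The step was 0.80 ± 0.13 on the log2 scale (adjusted p 0.000657, edgeR), after a rise of 0.93 from vehicle to 0.1 (adjusted p 5.17e-05).

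*Slc46a3* (chr5:147878437-147894815, minus strand) encodes a lysosomal membrane transporter. Its level was 180.7, 155.7, 152, 160.2 and 169.4 CPM at 0.1, and 354, 251.5, 261.1, 283.7 and 345.1 CPM at 0.3. All 5 mice at 0.3 exceeded all 5 at 0.1, with mice 1 and 5 the highest. The step was 0.87 ± 0.18 on the log2 scale (adjusted p 0.0348, edgeR), after a rise of 1.26 from vehicle to 0.1 (adjusted p 7.16e-05). This call lay near the threshold: it was lost in 8 of the 10 fits that left out 1 mouse, which were those without any mouse at 0.1 or without mouse 1, 4 or 5 at 0.3, at adjusted p from 0.0607 to 0.121. Over all 10 of these fits the step of *Slc46a3* stayed between 0.80 and 0.92.

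The other 5 genes called at the step, *Cyfip2*, *Nptx1*, *Tuba8*, *Tcf4* and *Insl6*, were not called at 0.1 against vehicle. *Cyfip2* (chr11:46193850-46312859, minus strand) encodes a subunit of the WAVE complex, which controls actin branching. Its level was 0.8, 1.9, 2.57, 1.78 and 2.07 CPM at 0.1, and 15.3, 16.5, 12.7, 8.88 and 7.8 CPM at 0.3. The groups lay far apart, with mouse 1 the lowest at 0.1. The step was 2.70 ± 0.32 on the log2 scale, a rise of 6.49-fold (adjusted p 1.96e-06, edgeR). Before the step, the mean at 0.1 of 1.82 ± 0.65 CPM lay beside a vehicle mean of 1.55 ± 0.56 CPM (SD, n = 5 each).

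*Nptx1* (chr11:119538719-119547753, minus strand) encodes a secreted pentraxin known from synapses. Its level was 0.711, 2.02, 2.8, 0.625 and 0.683 CPM at 0.1, and 9.49, 11, 13.9, 9.42 and 9.69 CPM at 0.3. Mice 2 and 3 stood above the rest at 0.1, and every mouse at 0.3 was well above them. The step was 3.05 ± 0.43 on the log2 scale or 8.29-fold (adjusted p 6.04e-05, edgeR). From vehicle, where mice ranged from 0 to 0.743 CPM, to 0.1 the change of *Nptx1* was 2.31 with an adjusted p of 0.893.

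*Tuba8* (chr6:121210696-121226854, plus strand) encodes an alpha-tubulin isotype. Its level was 3.2, 5.21, 3.8, 2.4 and 2.14 CPM at 0.1, and 19.1, 8.46, 8.65, 8.33 and 10.4 CPM at 0.3. Mouse 1 stood apart at 0.3, and the other mice at 0.3 were still above all mice at 0.1. The step was 1.74 ± 0.25 on the log2 scale (adjusted p 7.5e-05, edgeR), and without any 1 mouse it stayed called, between 1.46 and 1.96. A non-coding gene on the opposite strand, *Gm15856*, shares 16.3% of the exon bases of *Tuba8*. No strand setting is stated for the counting, so reads of *Tuba8* and *Gm15856* cannot be told apart there.

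*Tcf4* (chr18:69343356-69689079, plus strand) encodes a basic helix-loop-helix factor that binds E boxes. Its level was 24.6, 24.5, 24.5, 29.1 and 22.3 CPM at 0.1, and 43.5, 37.9, 38.6, 43.5 and 30.6 CPM at 0.3. The groups came close without overlapping, mouse 5 at 0.3 lying just above mouse 4 at 0.1. The step of *Tcf4* was 0.63 ± 0.11 on the log2 scale (adjusted p 0.00111, edgeR).

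*Insl6* (chr19:29321344-29325356, minus strand) encodes an insulin-like peptide of the relaxin family known from testis. It rested on few reads, 6, 9, 11, 5 and 21 at 0.1 and 16, 21, 24, 15 and 40 at 0.3. These were 0.533, 0.552, 0.642, 0.24 and 0.398 CPM at 0.1, and 1.25, 0.906, 0.91, 1.17 and 2.17 CPM at 0.3. The groups did not overlap, and mouse 5 was the highest at 0.3. The step of *Insl6* was 1.47 ± 0.30 on the log2 scale (adjusted p 0.0348, edgeR). It was not called in 7 of the 10 fits that left out 1 mouse (mouse 1, 2, 4 or 5 at 0.1 and mouse 1, 4 or 5 at 0.3), at adjusted p from 0.0502 to 0.241, nor with all libraries thinned to the smallest total (adjusted p 0.251).

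**Figure D2:**
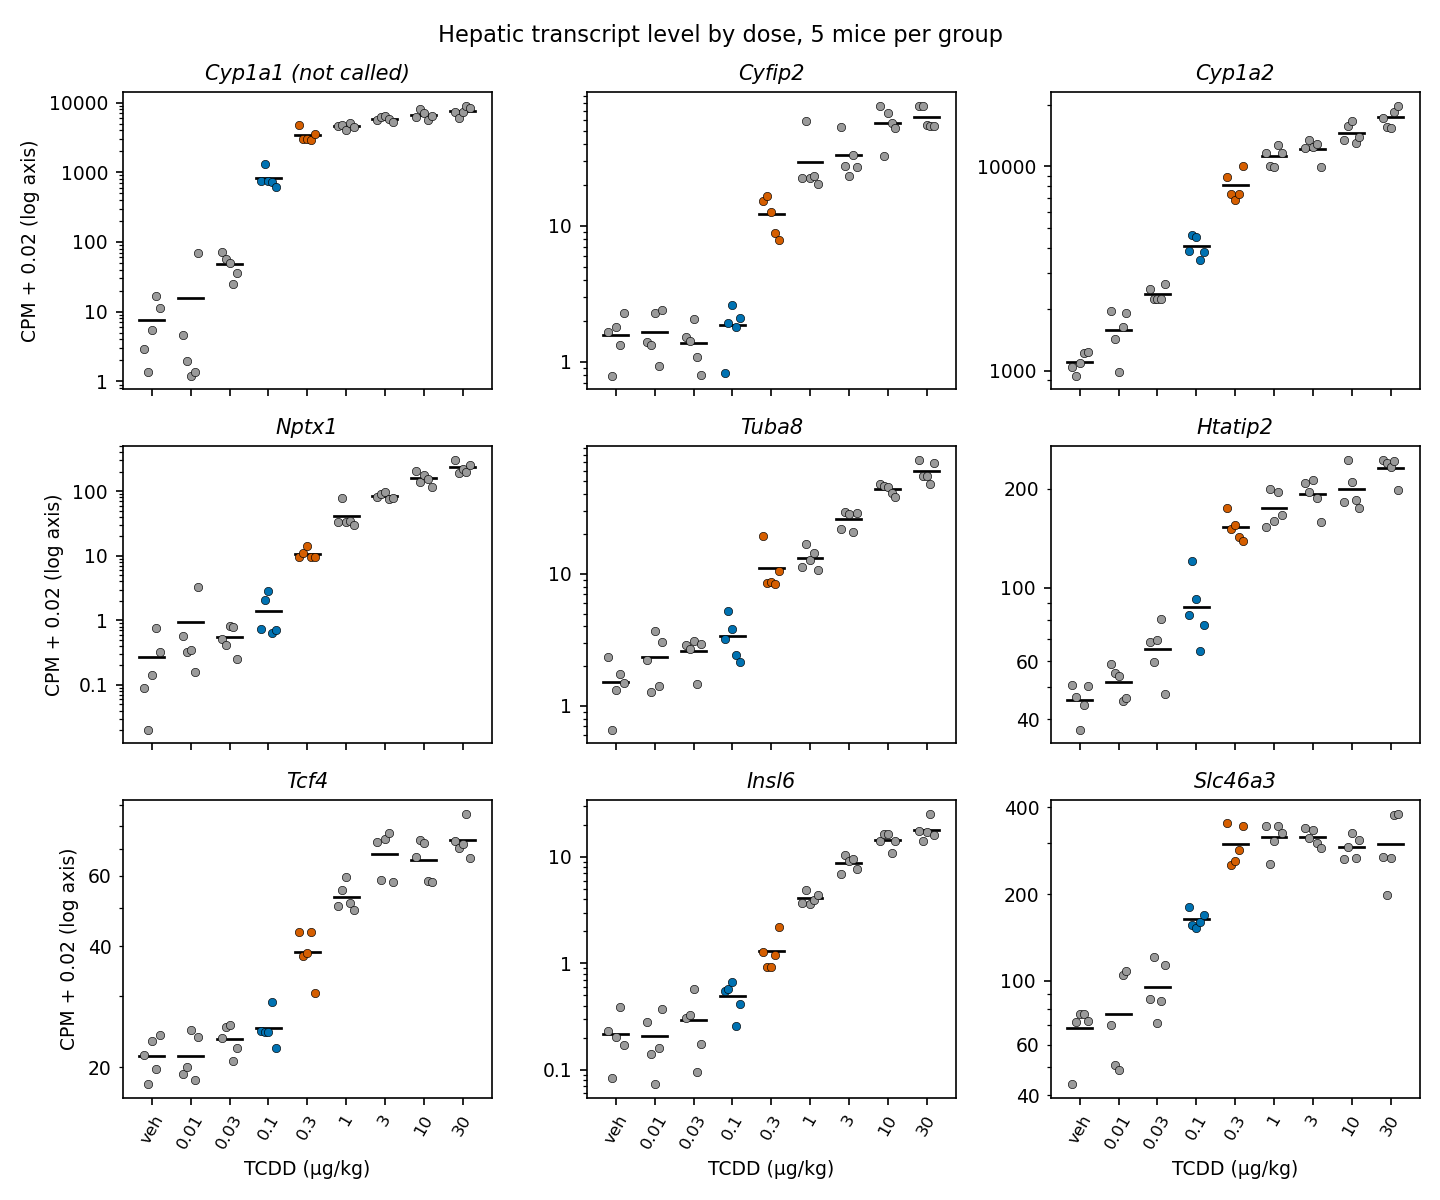
CPM + 0.02 on log axes for *Cyp1a1* and the 8 called genes in all 45 mice, by group from vehicle (veh) to 30 µg/kg, with 0.1 in blue, 0.3 in orange, the other groups in grey and black lines at the group means. The mean of *Cyp1a2* rises from 4055 to 8070 CPM between the coloured groups, and that of *Cyfip2* from 1.82 to 12.2 CPM.

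All 8 called genes were also higher than vehicle at 0.3 (called higher for 0.321% of genes), at 1 (1.24%) and at 30 µg/kg (15.5%). At 30 all 8 were among the 1402 genes higher by 2-fold or more, a comparison in which neither group of the step takes part. The comparison of 0.3 with vehicle shares the livers at 0.3 that chose the 8, so its values describe them and are no test. The same holds for the shares of the change at 30 given next, whose growth over the step is in part set by that choice. For 5 of the 8 the share at 0.1 rests on a change that was not called. Differences between the genes in these shares were not tested. On the log2 scale, *Slc46a3* went from 59.2% of its change at 30 to 100.1% over the step, *Htatip2* from 39.9% to 74.2% and *Cyp1a2* from 47.2% to 72.2%. *Cyfip2* went from 4.97% to 55.6%, *Nptx1* from 23.6% to 54.7% and *Tuba8* from 21.3% to 53.9%. *Tcf4* went from 12.8% to 48.3% and *Insl6* from 18.3% to 41%.

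The next step, from 0.3 to 1 µg/kg, is of nearly the same dose ratio, and it shares the livers at 0.3 with the step described. The 3 genes still climbing changed there by 0.47 (*Cyp1a2*, adjusted p 0.252), 0.19 (*Htatip2*, adjusted p 0.904) and 0.08 (*Slc46a3*, adjusted p 0.985) on the log2 scale in edgeR. *Cyfip2* rose by a further 1.28 (adjusted p 0.0264), *Nptx1* by 1.97 (adjusted p 0.00305) and *Insl6* by 1.7 (adjusted p 8.23e-05). *Tuba8* and *Tcf4* changed by 0.27 (adjusted p 0.937) and 0.46 (adjusted p 0.0616). When the difference between the steps was tested directly, 0 of the 17464 genes were called by edgeR and 0 by DESeq2, and 677 had an unadjusted p below 0.05 in edgeR. The next step minus this step was most negative among the 8 for *Tuba8*, at -1.47 (95% interval -2.28 to -0.65), and it was above 0 for *Insl6* alone, at 0.22 (-0.77 to 1.21). The 8 were chosen for their rise at the step, and a smaller next step is in part set by that choice.

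Within the AhR gene battery, a list of 8 genes, only *Cyp1a2* was called by edgeR, although *Cyp1a1* had the larger fold change. *Cyp1a1* (chr9:57687928-57703824, plus strand) measured 745, 1325, 743.5, 714.5 and 612 CPM at 0.1, and 4714, 2966, 2988, 2898 and 3511 CPM at 0.3. The groups did not overlap, mouse 2 at 0.1 being the nearest to the mice at 0.3. The mean rose from 828 ± 283 to 3415 ± 766 CPM (SD, n = 5). The step was 2.04 ± 0.58 on the log2 scale with an adjusted p of 0.444 in edgeR and of 0.27 to 0.844 when 1 of the 10 mice was left out. An exact permutation test over the 10 mice gave p = 0.00794 for *Cyp1a1*, the smallest that 5 mice against 5 allow (two-sided).

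The spread that edgeR uses comes from all 45 mice, and *Cyp1a1* varied most where it was low: the SD of its log2 level was 1.18 in vehicle and 2.11 at 0.01, against 0.43 at 0.1 and 0.30 at 0.3. Mouse 5 at 0.01 had 69.7 CPM of *Cyp1a1* where the others of its group had 1.18 to 4.54, and 17.5 CPM of *Cyp1b1* where the others had 0.239 to 0.974. Without that mouse, which belongs to neither group of the step and was omitted after its values were seen, *Cyp1a1* was called (adjusted p 0.000758, edgeR). *Cyp1b1* (0.0164) and *Ahrr* (0.0433) were called as well. The number of genes called at the step was then 13, including all 8. With only the 10 mice of the step in the fit, 6 genes were called: *Cyfip2*, *Cyp1a1*, *Nptx1*, *Cyp1a2*, *Slc46a3* and *Cyp1b1*. *Tuba8*, *Htatip2*, *Tcf4* and *Insl6* were not called in that fit, at adjusted p of 0.0831, 0.258, 0.258 and 0.907. Of 19 alternative fits, *Cyp1a1* and *Cyp1b1* were each called only in the 2 described here. DESeq2 called neither.

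*Cyp1b1* (chr17:79701537-79715061, minus strand) measured 0.711, 1.1, 0.467, 0.913 and 0.493 CPM at 0.1, and 2.82, 2.94, 2.35, 3.19 and 1.73 CPM at 0.3. The groups did not overlap, and the step was 1.87 ± 0.69 (adjusted p 0.797, edgeR). Vehicle mice measured 0.616 to 2.48 CPM of *Cyp1b1*, a range that overlaps both groups. *Ahrr* (chr13:74211118-74292331, minus strand), which encodes the AhR repressor, had 0, 2, 4, 4 and 12 reads at 0.1 and 13, 21, 45, 6 and 6 at 0.3. In CPM these were 0, 0.123, 0.234, 0.192 and 0.228 against 1.02, 0.906, 1.71, 0.467 and 0.325, without overlap and with mouse 3 highest at 0.3. The step of *Ahrr* was 2.33 ± 0.59 (adjusted p 0.224 in edgeR, 0.0271 in DESeq2). By 1 µg/kg *Ahrr* had reached 12.7 ± 5.6 CPM and *Cyp1b1* 109 ± 59 CPM (SD, n = 5), with next steps of 3.77 (adjusted p 1.35e-08) and 5.4 (adjusted p 1.37e-07).

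The other battery genes did not pass the test. *Nqo1*, a quinone reductase, was 19.8 ± 6.8 CPM at 0.1 and 26.3 ± 5.1 CPM at 0.3, a step of 0.42 (95% interval 0.05 to 0.78, adjusted p 0.838, edgeR) with overlapping groups. The glucuronosyltransferase genes *Ugt1a6a* and *Ugt1a6b* changed by -0.11 (-0.32 to 0.11) and -0.11 (-0.45 to 0.22). They share 50.3% and 60.6% of their exon bases with *Ugt1a7c* and lesser parts with other genes of the Ugt1a cluster. Reads that fit several genes are set aside as ambiguous in the counting, so the counts of these genes rest mainly on their other exon bases. *Gsta1* changed by -0.08 (-1.31 to 1.14) on 5 to 33 reads per mouse, and *Aldh3a1* had at most 2 reads in any of the 10 mice.

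The receptor and the partners named here did not pass the test either. *Ahr* was 74.8 ± 21.9 CPM at 0.1 and 74.8 ± 15.6 CPM at 0.3 (SD, n = 5), a step of -0.00 with a 95% interval of -0.42 to 0.42. *Arnt* changed by -0.20 (-0.49 to 0.08) and *Ptges3* by -0.08 (-0.36 to 0.21). *Tiparp* changed by 0.10 (-0.26 to 0.45), while at 30 µg/kg it was 12.4-fold above vehicle. The genes of Hsp90, *Hsp90aa1* and *Hsp90ab1*, changed by 0.26 (-0.37 to 0.88) and 0.18 (-0.06 to 0.42), with mouse 1 at 0.3 the highest of the 10 for both, at 74.1 and 1414 CPM.

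**Figure D3:**
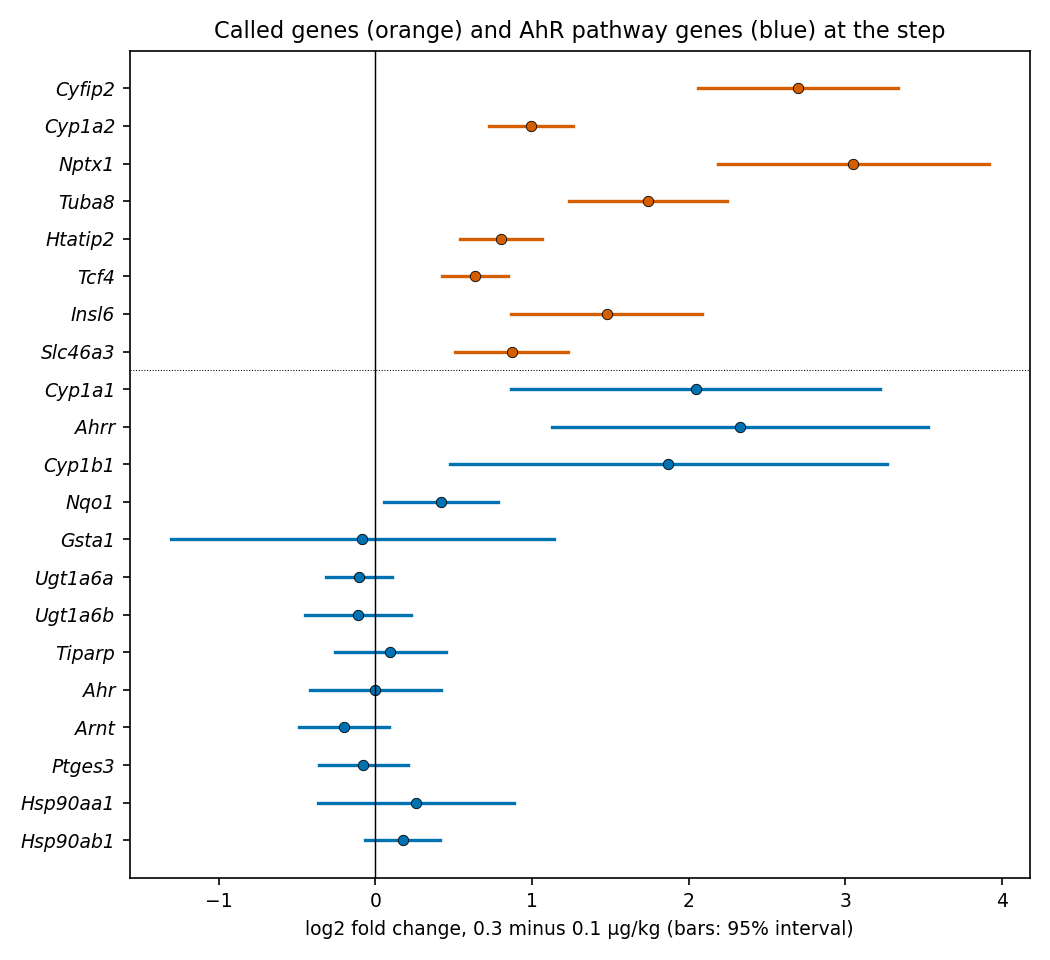
Step from 0.1 to 0.3 µg/kg as log2 fold change (points) with 95% intervals (bars) from the fit to all 45 mice, for the 8 called genes (orange, above the dotted line) and for genes of the AhR pathway (blue). The intervals of *Cyp1a1*, *Ahrr*, *Cyp1b1* and *Nqo1* lie above 0 without passing the adjusted threshold, and those of *Ahr*, *Arnt*, *Ptges3* and *Tiparp* include 0.

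In a further list of 12 liver genes known to respond to AhR ligands, *Htatip2* was called and 8 of 12 steps were above 0 (48.6% of all genes were), with a median of 0.33 beside -0.01 over all genes tested. At an unadjusted p below 0.05 there were 6 of these genes higher and 0 lower, where over all 17464 genes there were 437 and 570. The list was chosen with earlier results of these data known, so these counts describe it and are not a test. *Notch1*, a receptor of cell fate signalling, changed by 0.71 (adjusted p 0.638, edgeR).

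The DRE core was looked for in the 250 bases before the start of these genes, taken from RefSeq on GRCm38.p6, as GCGTG or its reverse complement CACGC, so both strands were read. Of the 8 called genes, 5 had such a window and 1 of the 5, *Htatip2*, held the core. The windows of *Cyp1a2*, *Cyfip2*, *Tuba8* and *Slc46a3* did not, nor did a window at another start of *Htatip2*. Among all genes tested that had a window, 5550 of 11932 (46.5%) held it. The 4 windows below are shown because they set the called genes *Htatip2* and *Slc46a3* beside *Cyp1a1* and *Ahrr*, and capitals mark the core on either strand.
*Htatip2*, chr7:49758856-49759105, plus strand: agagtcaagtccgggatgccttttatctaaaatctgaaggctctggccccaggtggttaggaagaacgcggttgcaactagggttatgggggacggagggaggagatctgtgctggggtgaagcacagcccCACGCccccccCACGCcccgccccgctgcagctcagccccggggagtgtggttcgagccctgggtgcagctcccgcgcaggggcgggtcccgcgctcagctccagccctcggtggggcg
*Slc46a3*, chr5:147894816-147895065, minus strand: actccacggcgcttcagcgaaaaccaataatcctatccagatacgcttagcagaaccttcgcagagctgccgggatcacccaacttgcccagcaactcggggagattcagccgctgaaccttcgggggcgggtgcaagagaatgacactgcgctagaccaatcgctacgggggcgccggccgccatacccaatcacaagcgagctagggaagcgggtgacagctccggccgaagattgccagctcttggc
*Cyp1a1*, chr9:57697363-57697612, plus strand: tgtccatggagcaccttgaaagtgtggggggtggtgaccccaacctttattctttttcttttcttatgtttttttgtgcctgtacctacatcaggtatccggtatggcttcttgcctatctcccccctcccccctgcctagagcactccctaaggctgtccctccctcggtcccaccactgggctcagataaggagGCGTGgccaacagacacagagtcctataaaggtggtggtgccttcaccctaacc
*Ahrr*, chr13:74292332-74292581, minus strand: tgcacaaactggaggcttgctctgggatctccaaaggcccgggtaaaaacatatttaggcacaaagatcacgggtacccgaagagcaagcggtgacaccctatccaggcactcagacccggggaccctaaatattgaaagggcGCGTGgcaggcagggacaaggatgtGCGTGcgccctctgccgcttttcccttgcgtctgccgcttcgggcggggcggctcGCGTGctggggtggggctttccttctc
Each is written 5′ to 3′ on the strand of its gene and ends at the base before the annotated start. *Htatip2* holds 2 copies in the reverse direction, *Cyp1a1* holds 1 and *Ahrr* 3 in the forward direction, and *Slc46a3* holds 0. A match is a run of letters and not a site shown to be bound, and bases outside these windows were not searched. The RefSeq starts of *Cyp1a1*, *Cyfip2*, *Cyp1a2* and *Tuba8*, and the other start of *Htatip2*, lie inside the GENCODE spans given above.

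Genes that had not yet moved were defined as those called at 30 against vehicle with a change of 2-fold or more, which applied to 1999 genes (11.4% of those tested), and called in none of 0.1 against vehicle, 0.3 against vehicle and the step. There were 1944 of them, 97.2% of the 1999, of which 1361 were higher and 583 lower at 30. A missed threshold does not show that a gene stood still: for 935 of the 1944 (48.1%) the 95% interval of the step lay within 2-fold either way, as it did for 71.5% of all genes tested.

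As a group, genes that move at 30 leaned the same way at the step. Of the 1402 genes higher at 30, 65.8% had a step above 0, against 48.6% of all genes, with a median of 0.15 on the log2 scale. Of the 597 lower at 30, 65.3% had a step below 0, against 51.2% of all genes, with a median of -0.11. The median over all genes was -0.01. Neither the vehicle mice nor the mice at 30 enter the step, although genes are not independent of each other and no test was made of these shares. Within the 1944 not yet moved, the medians were 0.14 for the higher and -0.11 for the lower genes.

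**Figure D4:**
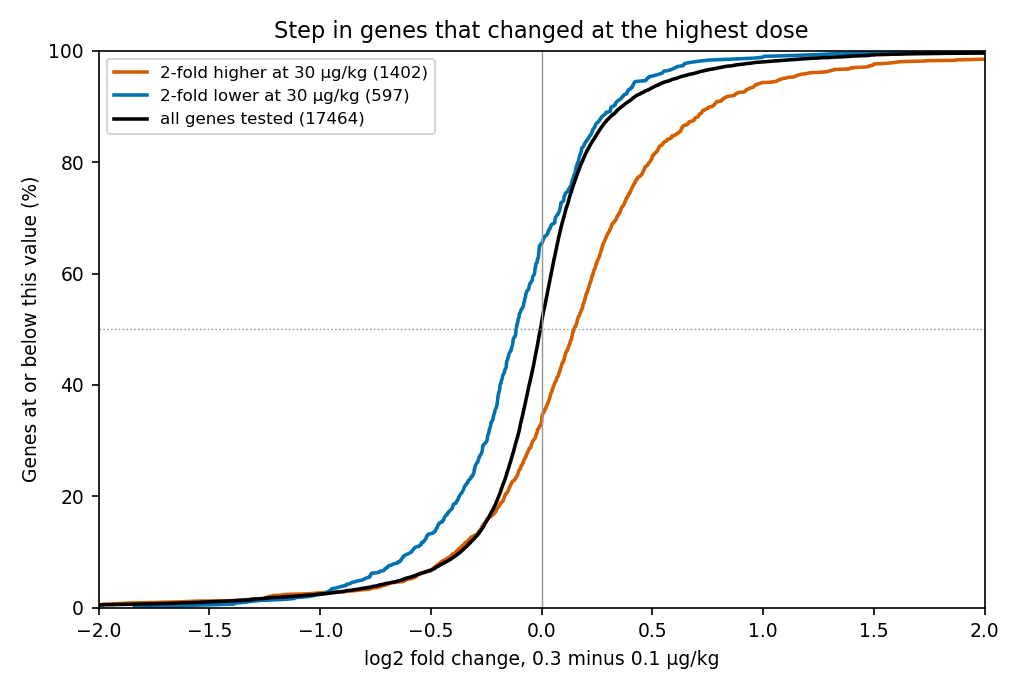
Cumulative share of genes (y axis, percent) by step from 0.1 to 0.3 µg/kg (x axis, log2 fold change, drawn from -2 to 2) for the 1402 genes 2-fold higher at 30 µg/kg, the 597 genes 2-fold lower and all 17464 genes tested. The curves cross 50% at 0.15, -0.11 and -0.01.

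Of the 8 genes with the largest rises at 30 among those not yet moved, *Ahrr* and *Cyp1b1* are described above, with groups that did not overlap at the step, and the others had few or no reads at both doses. *Hmx1*, a homeobox gene, had 0 reads in all mice at 0.1 and at most 1 at 0.3, and 23 to 134 reads at 30. *Krt25*, a hair keratin, had 0 reads at 0.1, at most 1 at 0.3 and 41 to 53 at 30. *Col9a2*, a chain of type IX collagen, had at most 1 read in any of the 10 mice and 1064 to 3484 reads at 30. *Ovol1*, an epithelial zinc finger factor, likewise had at most 1, against 141 to 313 at 30. *Ecel1*, an endopeptidase-like protein, had 0 reads at both doses and 171 to 352 at 30. *Pnliprp1*, related to pancreatic lipase, had 2, 0, 3, 0 and 1 reads at 0.1 and 2, 10, 12, 1 and 2 at 0.3, with overlapping groups, and 176 to 823 at 30. No fold is given for these genes, since at 1 or both doses they stayed at or below 3 reads.

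The genes with the largest falls at 30 were still expressed at both doses. *Hao1*, the peroxisomal glycolate oxidase, was 296, 289, 236.4, 279 and 261 CPM at 0.1, and 256, 231, 214, 230 and 189 CPM at 0.3. The groups overlapped only in that mouse 1 at 0.3 lay above mouse 3 at 0.1, and the step was -0.28 (95% interval -0.90 to 0.34, adjusted p 0.964, edgeR), whereas the mean at 30 was 2.3 ± 3.24 CPM. *Slco1a1*, a sex-biased organic anion transporter, ranged from 53.5 to 329 CPM at 0.1 and from 33.7 to 79.1 CPM at 0.3, a step of -1.34 (-2.90 to 0.22) with overlap. Its mean of 143 CPM at 0.1 included 329 CPM in mouse 4. With only the 10 mice in the fit, *Slco1a1* changed by -1.33 ± 0.41 (SE), also without a call, and the permutation test gave p = 0.0635.

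The sulfotransferase genes *Sult3a1*, *Sult3a2* and *Sult2a7* had steps above 0 that did not pass the test. *Sult3a1* changed by 0.27 (95% interval -0.57 to 1.11), *Sult3a2* by 0.95 (0.00 to 1.90, adjusted p 0.864, edgeR) and *Sult2a7* by 0.31 (-0.67 to 1.29), all with overlapping groups. *Sult2a7* was 7.875 to 21.23 CPM at 0.1 where vehicle mice had 21.24 to 47.76 CPM. The share of all genes with such a gap was not counted. Nor was the lower level particular to 0.1, since the mean was 35.6 CPM in vehicle, 17.7 at 0.01, 16.7 at 0.03, 13.6 at 0.1 and 16.85 at 0.3. The change of *Sult2a7* from vehicle to 0.1, of -1.41, was not called (adjusted p 0.893, edgeR). At 1 µg/kg *Sult2a7* was called lower than vehicle (-2.21, adjusted p 0.00849, edgeR). *Slc13a2*, a dicarboxylate transporter, changed by 0.40 (-0.50 to 1.3) and the non-coding *Gm2788* by 0.29 (-0.55 to 1.12). Both share exon bases with genes on the opposite strand, *Slc13a2* 26.2% with its antisense gene. The gene ENSMUSG00000097758, which has no symbol in the tables used, was 0.889, 0.736, 0.584, 0.529 and 2.73 CPM at 0.1, and 0.157, 0.518, 0.228, 0.311 and 0.379 CPM at 0.3. Its groups did not overlap, as in 0.303% of all genes in that direction, and its step was -1.84 (-3.07 to -0.61, adjusted p 0.756). Without mouse 5 at 0.1 the step was -1.02 (adjusted p 0.85).

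No gene was called lower at the step by edgeR, and the 5 with the smallest p were *Txlnb*, *Btbd19*, *Lepr*, *Malat1* and *Taf15*. Against vehicle, 25 of the 17464 genes were called lower at 0.3, of these 5 only *Lepr*. Vehicle means of *Txlnb*, *Btbd19*, *Malat1* and *Taf15* were 0.037, 0.952, 1810 and 158 CPM. These lay below their means at 0.1, which were 0.168, 1.55, 2731 and 168 CPM. *Txlnb*, a taxilin known from muscle, had 1, 2, 5, 5 and 5 reads at 0.1 and 0 in all mice at 0.3 (adjusted p 0.0934). *Btbd19* was 1.55 ± 0.61 CPM at 0.1 and 0.712 ± 0.131 at 0.3 (adjusted p 0.114). *Lepr*, the leptin receptor, was 9.69, 6.01, 5.2, 15.8 and 14.5 CPM at 0.1, and 4.08, 2.63, 4.17, 3.66 and 5.2 CPM at 0.3. The groups of *Lepr* met without overlapping, mouse 3 at 0.1 and mouse 5 at 0.3 being nearly equal, and the step was -1.39 ± 0.34 (adjusted p 0.145 in edgeR, 0.0271 in DESeq2). *Malat1*, a nuclear non-coding RNA, was 5681 CPM in mouse 4 at 0.1 and 1480 to 2329 in the others of that group, against 1237 to 1738 at 0.3, and DESeq2 called it at 0.0498. The step of *Malat1* was -0.89 (adjusted p 0.202, edgeR) and, over omissions of each of the 10 mice, -1.05 to -0.44. It was called lower in 1 of these fits, without mouse 5 at 0.1 (adjusted p 0.0444), and was smallest without mouse 4 at 0.1 (adjusted p 1). *Taf15*, an RNA-binding protein of the FET family, was also highest in mouse 4 at 0.1, at 217 CPM. That library had 17.1% of its counted reads outside annotated genes, the highest of the 45, against 10.5% to 12.1% at 0.3, and the part this plays in *Malat1* and *Taf15* was not tested.

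Just outside the threshold, and chosen after their values were seen, lay *Sorcs3* and *Pkm*, both at an adjusted p of 0.0534 in edgeR, and *Car2* and *Rcan3* at 0.082. *Pkm*, a pyruvate kinase gene of non-hepatic tissues, was 4.88 ± 2.06 CPM at 0.1 and 10.2 ± 2.2 CPM at 0.3, a step of 1.04 ± 0.22. *Car2*, a carbonic anhydrase, was 10.2 ± 2.3 and 16.8 ± 3.3 CPM, a step of 0.71 ± 0.16. At an adjusted p below 0.1 there were 15 genes higher and 1 lower.

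None of the remaining gene lists had a called member, and their counts of steps above 0 are to be read against 48.6% of all genes. Fatty acid synthesis genes, which make fat from carbohydrate, had 3 of 12 steps above 0 and a median of -0.18 beside -0.01 over all genes. *Elovl5*, a fatty acid elongase, had the smallest p of that list at a step of 0.43 (95% interval 0.01 to 0.85, adjusted p 0.864 in edgeR). Cholesterol synthesis genes had 17 of 21 steps above 0 with a median of 0.13. Of the sex-biased liver genes 13 of 18 steps were above 0 with a median of 0.27. In the p53 and cell cycle list 11 of 16 steps were above 0 and the median was 0.10.

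The Nrf2 antioxidant list, genes of glutathione and redox defence, had 12 of 14 steps above 0 and a median of 0.10, with *Srxn1* at 0.40 the lowest in p (adjusted p 0.756, edgeR). The UDP-glucuronosyltransferase genes had 13 of 18 steps above 0 and a median of 0.15. Bile acid genes had 7 of 16 and a median of -0.01, and fatty acid oxidation genes 7 of 18 and a median of -0.06. Glutathione S-transferase genes had 11 of 19 above 0 (median 0.05) and CAR and PXR target genes 8 of 14 (median 0.03). Glucose metabolism genes had 2 of 13 above 0 (median -0.17), with *Fbp1*, a gluconeogenic phosphatase, at 0.33 and *Pklr*, the liver pyruvate kinase, at -0.59. The circadian clock list had 6 of 18 above 0 and a median of -0.13, with *Npas2* at 12.1 CPM in mouse 1 at 0.3 and at most 1.17 CPM in the other 9 mice. *Nr1d1*, a repressor of the clock named here after its values were seen, ranged from 12.5 to 150 CPM at 0.1 and from 1.96 to 147 CPM at 0.3, and the labels give no time of harvest. Interferon-stimulated genes had 11 of 18 above 0 (median 0.02), immediate early and heat shock genes 7 of 17 (median -0.09) and integrated stress response genes 2 of 11 (median -0.21).

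Markers of cell types were compared next, since in bulk liver fewer cells of a type and less RNA per cell cannot be told apart. Hepatocyte markers were high in all 10 mice, with a summed level of 123600 to 165300 CPM at 0.1 and 131000 to 143500 CPM at 0.3, as the label liver implies. In the hepatocyte list 1 of 9 steps was above 0 and 0 were called. Macrophage markers summed to 134 to 417 CPM at 0.1 and 161 to 442 CPM at 0.3, and lymphocyte markers to 2.49 to 11.9 and 4.24 to 8.12 CPM. Stellate cell and fibroblast markers summed to 348 to 528 and 362 to 552 CPM and had 9 of 9 steps above 0 with a median of 0.13. Endothelial markers summed to 117 to 174 and 126 to 187 CPM, with 5 of 7 steps above 0. Cholangiocyte markers summed to 44.5 to 67.4 and 48.8 to 63.3 CPM, erythroid markers to 41.8 to 96.1 and 63.8 to 101.4 CPM, and neutrophil markers to 0 to 2.45 and 0.857 to 1.86 CPM. Adipocyte markers, which hepatocytes express in part, summed to 1061 to 2488 and 1081 to 1901 CPM. Steps were above 0 for 7 of 7 erythroid, 8 of 10 macrophage, 7 of 10 lymphocyte and 5 of 6 cholangiocyte markers. The counts were 3 of 6 for neutrophil and 2 of 5 for adipocyte markers, against 48.6% of all genes. No member of these lists was called, and their part in the step was not tested.

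For some lists a single mouse stood above the others of its group. Pancreas acinar markers summed to 4.58 CPM in mouse 2 at 0.3 and to between 0.235 and 0.467 CPM in the other mice of that group, and 5 of the 6 tested had an unadjusted p below 0.05. Skeletal muscle markers summed to 13.1 CPM in mouse 3 at 0.1 and to 0.436 to 1.3 CPM in the others, and 4 of the 5 tested had an unadjusted p below 0.05 in the lower direction. Acute phase genes, which the liver makes in inflammation, summed to 36670 CPM in mouse 5 at 0.1 and to 16020 to 19490 CPM in the others. In that list 2 of 18 steps were above 0 with a median of -0.29, and Hp and *Saa2*, which encode haptoglobin and a serum amyloid, had steps of -0.73 and -1.76. The part of these signals in the step was not tested. Without mouse 2 at 0.3 all 8 genes were called. Without mouse 3 at 0.1, 7 of the 8 were called and without mouse 5 at 0.1, 6 were, the genes lost being *Slc46a3* in both and *Insl6* in the latter.

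**Figure D5:**
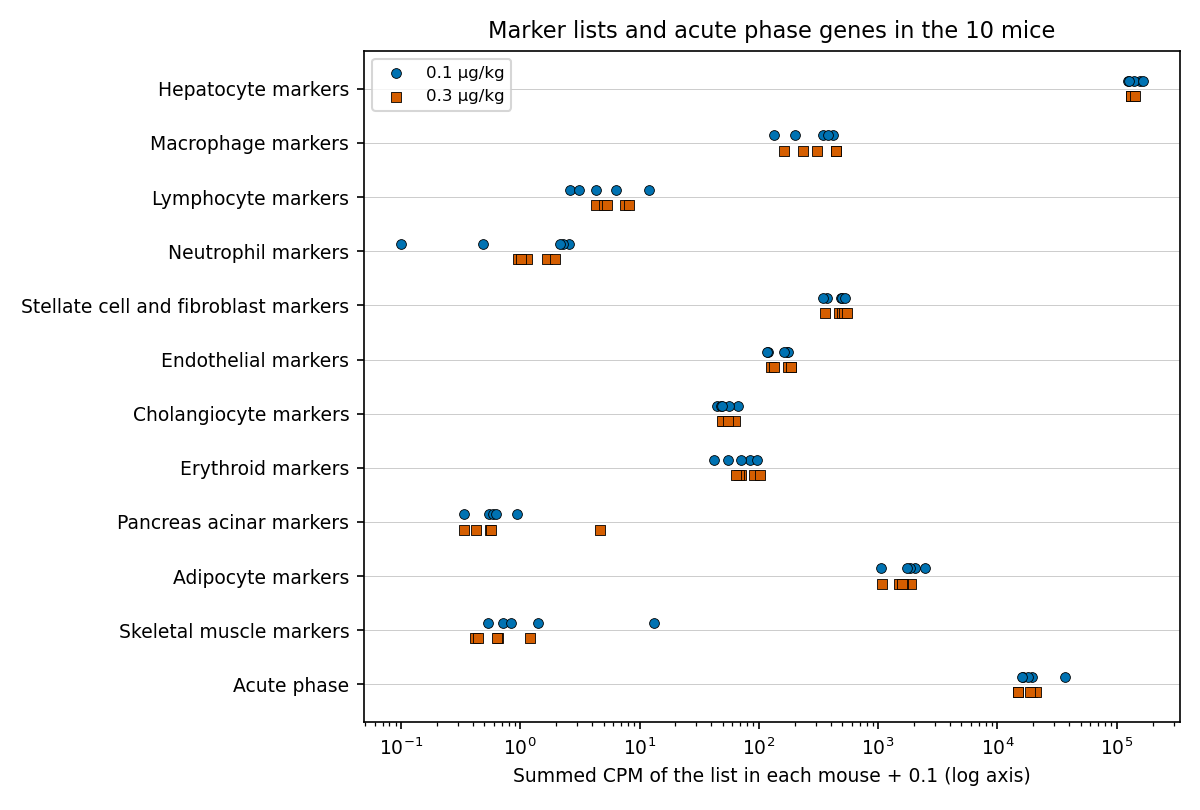
Summed CPM + 0.1 of each marker list and of the acute phase list (log axis) in the 5 mice at 0.1 (blue circles) and the 5 mice at 0.3 µg/kg (orange squares). Single mice stand apart for pancreas acinar markers at 0.3 (4.58 CPM), skeletal muscle markers at 0.1 (13.1 CPM) and acute phase genes at 0.1 (36670 CPM), and the other lists overlap between groups.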

How the data were processed

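Liver RNA of 45 mice was sequenced. The authors aligned the reads to GRCm38 and counted them per Ensembl gene, and deposited 1 file of raw counts per mouse (the submitters' processing notes name FastQC 0.11.2, TopHat 1.4.1, SAMtools 0.1.19, HTSeq 0.6.1 and DESeq). Strand setting and sequencing pools are not given in the sources used here. Rows that name no gene were left out of library totals and tests; reads assigned to no feature came to 9.11% to 17.1% of the counted reads.

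Of 39179 genes, the 17464 with more than 4 reads in any mouse were tested with edgeR 4.0.16 in R 4.3.3 (TMM, quasi-likelihood, all 9 groups in one fit, no covariate, Benjamini-Hochberg adjustment, called below 0.05). Totals assigned to genes ranged from 11767284 to 56509899; intervals carry the spread between mice. Single genes were also compared by a two-sided exact permutation test of mean log2 (CPM + 1). DESeq2 1.42.0, other scalings and filters, thinned libraries, a fit to the 10 mice alone and omission of each mouse were alternatives. The fits of the step were also run on simulated counts that gave each gene the same spread in all groups. A spread that differs between groups, as for *Cyp1a1*, was not simulated.

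Genes named were all called at the step; with none called lower, the 5 with the smallest p; the AhR core and battery lists, of which 1 gene is not reported here; genes called at 0.1 against vehicle; the 8 most increased and the 8 most decreased at 30 among those not yet moved whose vehicle and 30 groups did not overlap and together averaged 10 reads or more; and up to 2 of smallest p per further list. The comparison and the gene lists were chosen with earlier results of these data known. Positions are from GENCODE M21 and promoters from RefSeq, both on GRCm38. Each library is from a separate mouse.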

Additional observations from a re-analysis of the deposited data

Results flagged for a closer look

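In 19 of 142 sets of 5 mice (a named gene or a list sum at 1 dose) a single mouse stood far from the other 4 by Dixon's criterion. Independent normal values meet it in about 1 set in 20. The sets overlap and some hold 1 read beside 0, so no excess over that rate is read from the count. At 0.3, mouse 1 stood high for *Tuba8* (19.14 CPM, the others 8.332 to 10.45), *Hsp90aa1* (74.12, the others 13.84 to 28.62), *Hsp90ab1* (1414, the others 749.4 to 828) and the sum of the AhR core list, which holds the Hsp90 genes (1685, the others 961.9 to 1010). At 0.1, mouse 4 stood high for *Malat1* (5681 CPM, the others 1480 to 2329) and *Taf15* (217.1, the others 147 to 162.9).

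Mouse 5 at 0.1, the deepest library, stood high for the acute phase sum (36670 CPM, the others 16020 to 19490), the fatty acid oxidation sum (12930, the others 7304 to 8777), *Gm2788* (28.39, the others 10.19 to 14.66) and ENSMUSG00000097758 (2.732, the others 0.5285 to 0.889). Mouse 2 at 0.1 stood high for *Cyp1a1* (1325 CPM, the others 612.2 to 745.4) and *Sult3a2* (4.417, the others 1.956 to 2.628). *Insl6* was 2.166 CPM in mouse 5 at 0.3, the others 0.9065 to 1.255.

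Pancreas acinar markers summed to 4.576 CPM in mouse 2 at 0.3 (the others 0.2353 to 0.4672), and skeletal muscle markers to 13.14 CPM in mouse 3 at 0.1 (the others 0.4364 to 1.297). The remaining cases rest on 1 read in a single mouse where the other 4 had 0: *Ovol1* at 0.1 (0.01897 CPM, mouse 5) and at 0.3 (0.03793, mouse 3), *Col9a2* at 0.1 (0.04804, mouse 4) and *Krt25* at 0.3 (0.07843, mouse 1).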

How the results depend on the processing

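DESeq2 called 19 genes higher and 2 lower, with 12 at 2-fold or more, and an adjusted p below 0.1 gave 15 higher and 1 lower. Without mouse 5 at 0.01, an omission chosen after seeing the data, 13 were higher and 9 changed 2-fold or more. Omitting each of the 10 mice in turn gave 6 to 10 genes higher, 0 to 1 lower (*Malat1*, without mouse 5 at 0.1), 3 to 6 at 2-fold or more, 2 to 3 still climbing and 1933 to 1962 not yet moved. Scaling by library totals alone called 11 genes higher and moved the median of all genes to 0.03 from -0.01.

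Over the 41 named genes, 732 of 777 alternative values kept their direction and side of the threshold, 20 calls were lost and 9 gained. The 16 that turned direction belong to genes not called, and the cause was not tested. *Ahr* became 0.03861 on library totals and 0.002671 in the fit to the 10 mice; its range over omissions was -0.1103 to 0.1281, above 0 without mouse 1 (0.1281) or 5 (0.09791) at 0.1 or mouse 2 at 0.3 (0.09713). *Col9a2* became -0.02238 when libraries were thinned. The range over omissions was -0.5274 to 0.1953 for *Gsta1*, above 0 without mouse 3 at 0.1 (0.1499) or mouse 1 (0.07193) or 3 (0.1953) at 0.3. The omission of a single mouse turned *Tiparp* (-0.01537; range to 0.24), *Ugt1a6a* (0.004403; range from -0.1753), *Slc13a2* (-0.003152; range to 0.7853), *Hsp90aa1* (-0.3459; range to 0.4498), *Hsp90ab1* (-0.04025; range to 0.2331), *Sult2a7* (-0.05412; range to 0.5529) and *Ovol1* (-1.257; range to 1.444).

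No paired analysis was possible because the labels give the groups no shared replicate numbers. The median width of the 95% interval of the step was 0.80 on the log2 scale.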
